A study of Homo sapiens with 6 samples.

Results

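Integrin chains that form receptors for fibronectin and other ligands were compared between MCF10A-SNAI1 cells and MCF10A cells. Most of these receptors, but not all, bind an RGD (arginine-glycine-aspartate) site. The group was given as 10 genes, 5 alpha chains (ITGA5, ITGAV, ITGA8, ITGA4 and ITGA9) and 5 beta chains (ITGB1, ITGB3, ITGB5, ITGB6 and ITGB8). Each was represented by 1 probe set that carried no other gene symbol, so all 10 of the 10 were measured, among 18417 genes in all. The MCF10A-SNAI1 line is MCF10A transfected with a plasmid for Flag-tagged SNAI1, driven by a chicken beta-actin promoter with a viral (CMV) enhancer, and the cells were then selected with puromycin. The MCF10A cells were untransfected, and both lines were grown in mammary epithelial growth medium with cholera toxin. MCF10A is an immortalized, untransformed line of human mammary epithelium. Each line was measured on 3 Affymetrix HuGene arrays, described as biological replicates. The plasmid, the selection and the separate culture history of the line cannot be told apart from SNAI1 itself, and the sources do not say how many clones the line holds.

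An integrin is a receptor made of 1 alpha and 1 beta chain, and the pairing decides which matrix protein it binds. The alpha5-beta1 receptor is the classical fibronectin receptor of migrating cells and assembles fibronectin into fibrils, while alphaV joins several beta chains to bind fibronectin, vitronectin and the latency peptide of TGF-beta. AlphaV-beta6 is restricted to epithelia and alphaV-beta8 is found in several cell types; both activate latent TGF-beta. The alpha4 and alpha9 chains bind fibronectin or other matrix and adhesion proteins at sites that differ from RGD, and alpha8-beta1 binds RGD proteins such as nephronectin.

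Since SNAI1 is a zinc finger repressor that binds the E-box CAGGTG, the 250 bases before the annotated start of each gene were read. They came from a set of RefSeq promoters (GRCh38.p14) that held 8 of the 10 members, without ITGA9 and ITGB3. The 3 members whose RNA changed by more than 2-fold are shown with ITGB5, the other member with an E-box. Capitals mark CAGGTG and the GC box GGGCGG, searched on both strands, so that CACCTG and CCGCCC are the same motifs on the opposite strand; no 2 of them overlapped in the windows shown.
ITGB6, chr2:160200273-160200522, minus strand: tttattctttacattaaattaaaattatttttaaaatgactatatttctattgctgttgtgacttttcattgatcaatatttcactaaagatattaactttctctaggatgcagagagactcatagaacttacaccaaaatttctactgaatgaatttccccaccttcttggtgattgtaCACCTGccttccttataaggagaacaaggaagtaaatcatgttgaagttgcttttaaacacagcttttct
ITGA5, chr12:54419267-54419516, minus strand: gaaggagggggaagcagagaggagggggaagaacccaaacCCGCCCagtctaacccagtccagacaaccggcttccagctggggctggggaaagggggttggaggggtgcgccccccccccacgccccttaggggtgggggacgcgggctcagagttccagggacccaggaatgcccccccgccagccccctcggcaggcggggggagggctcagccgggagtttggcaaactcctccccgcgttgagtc
ITGB8, chr7:20330650-20330899, plus strand: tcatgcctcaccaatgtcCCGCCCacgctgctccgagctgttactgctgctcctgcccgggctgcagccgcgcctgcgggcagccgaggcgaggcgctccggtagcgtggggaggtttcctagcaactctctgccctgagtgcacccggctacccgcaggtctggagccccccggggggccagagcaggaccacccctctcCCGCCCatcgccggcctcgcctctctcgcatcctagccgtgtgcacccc
ITGB5, chr3:124887366-124887615, minus strand: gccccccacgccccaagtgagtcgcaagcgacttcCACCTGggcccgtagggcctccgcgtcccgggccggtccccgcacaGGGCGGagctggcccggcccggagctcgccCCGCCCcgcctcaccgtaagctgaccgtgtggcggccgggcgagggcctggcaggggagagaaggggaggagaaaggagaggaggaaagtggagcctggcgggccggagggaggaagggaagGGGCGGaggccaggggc
CAGGTG occurred in 2 of the 8 windows, starting at -70 in ITGB6 and at -215 in ITGB5, against 17.5% of 35116 RefSeq windows of this length. GGGCGG occurred in 4 of the 8, against 42.6% of all windows. The ITGB6 window was 30.0% G and C, that of ITGA5 70.0%, that of ITGB8 71.2% and that of ITGB5 75.2%, with a median of 58.0% over all windows. The table gives 1 start per gene, and the start used in these cells was not measured.

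On the arrays, values are deposited log2 expression, so a difference of 1 is 2-fold, and differences were taken as the MCF10A-SNAI1 mean less the MCF10A mean. A gene was called when limma, a linear model with moderated variance fitted over all 33297 probe sets, put it beyond 2-fold with a Benjamini-Hochberg adjusted p below 0.01. SNAI1 lay at 10.50, 10.53 and 10.50 in MCF10A-SNAI1 cells, against 5.80, 5.73 and 5.77 in MCF10A cells (log2 fold change 4.75, SE 0.056, adjusted p = 7.06e-08). Arrays of 1 line correlated at r = 0.995 to 0.996 over probe sets, and arrays of different lines at 0.977 to 0.978. Of the 6 measured epithelial markers, 4 were called lower and none higher, and they averaged 7.73 to 7.91 on the MCF10A-SNAI1 arrays and 10.37 to 10.40 on the MCF10A arrays. Of 7 mesenchymal markers, SNAI1 included, 4 were called higher and 1 lower. Of 5 fibroblast markers, 2 were called higher, and the list averaged 7.60 to 7.72 on the MCF10A-SNAI1 arrays and 5.33 to 5.34 on the MCF10A arrays. The called genes were DCN and COL1A1, with log2 fold changes of 8.26 and 2.57, while the median of the list was 0.40. The platelet and endothelial lists had no called member of 4 each, and the leukocyte list had 1 of 4, CD14, while the leukocyte-defining PTPRC was not called. Over all genes, 5.64% were called in either direction. The part of these markers in the results below was not tested, and in RNA of whole cultures fewer expressing cells and less RNA per cell cannot be told apart.

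Among the 10 integrin chains, 2 were called higher in MCF10A-SNAI1 cells (ITGA5 and ITGB8), 1 was called lower (ITGB6) and 7 were not called. Across all 18417 genes, 5.64% were called, 3.10% higher and 2.54% lower. Another 3 chains passed the adjusted p but lay under 2-fold, namely ITGB3 and ITGB5 above and ITGA4 below their MCF10A levels, so 6 of the 10 passed the p threshold alone, as did 23.2% of all genes. Without MCF10A replicate 3, ITGA4 was called too, which made 2 chains lower. The arrays of the lines did not overlap for 8 of the 10 chains, against 48.3% of all genes. The median log2 fold change of the 10 chains was 0.17, and their median absolute change was 0.60, against -0.01 and 0.15 over all genes.

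ITGA5 encodes the alpha5 chain, which pairs with beta1 alone to form the main fibronectin receptor. It lay at 11.07, 10.98 and 11.04 in MCF10A-SNAI1 cells, against 9.56, 9.54 and 9.48 in MCF10A cells. All MCF10A-SNAI1 arrays were above all MCF10A arrays, with a gap of 1.42 between the closest of them. ITGA5 was thus up-regulated 2.84-fold (log2 fold change 1.50, SE 0.060, 95% interval 1.36 to 1.65, adjusted p = 5.60e-06 from limma), the highest change among the 10 chains and rank 260 from the top of all genes.

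ITGAV encodes the alphaV chain, the shared partner of beta1, beta3, beta5, beta6 and beta8. It lay at 9.49, 9.49 and 9.53 in MCF10A-SNAI1 cells and at 9.35, 9.38 and 9.27 in MCF10A cells. The arrays did not overlap, but the gap was 0.11 and the change did not pass the threshold (log2 fold change 0.17, 95% interval 0.02 to 0.31, adjusted p = 0.0987 from limma). The interval leaves out a change of 2-fold in either direction.

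ITGA8 encodes the alpha8 chain, best known from mesenchyme of the developing kidney and from smooth muscle. It was at 4.18, 3.88 and 4.14 in MCF10A-SNAI1 cells, against 4.50, 4.01 and 4.08 in MCF10A cells. The lines overlapped (log2 fold change -0.13, 95% interval -0.48 to 0.22, adjusted p = 0.6411 from limma), and 1 MCF10A-SNAI1 array lay in the lowest 20% of all values, below 3.94. ITGA9, the alpha9 chain, overlapped likewise, at 5.14, 5.12 and 4.98 in MCF10A-SNAI1 cells and 5.15, 5.10 and 5.32 in MCF10A cells (log2 fold change -0.11, 95% interval -0.30 to 0.09, adjusted p = 0.4621). With each array left out in turn, ITGA8 ranged from -0.22 to 0.02, with the change of sign without MCF10A replicate 1, and ITGA9 from -0.15 to -0.04, nearest to 0 without MCF10A replicate 3 and at -0.06 without MCF10A-SNAI1 replicate 3. The table holds no detection calls, so whether these 2 genes were expressed at all was not decided.

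ITGA4 encodes the alpha4 chain, which binds the alternatively spliced connecting segment of fibronectin and VCAM1 and is best known from leukocytes. Its values were 4.48, 4.58 and 4.59 in MCF10A-SNAI1 cells, against 5.57, 5.63 and 5.39 in MCF10A cells. All MCF10A-SNAI1 arrays were below all MCF10A arrays. The difference was 1.97-fold (log2 fold change -0.98, SE 0.081, 95% interval -1.17 to -0.79, adjusted p = 1.71e-04 from limma), just under the fold threshold, and ITGA4 was called without MCF10A replicate 3, at -1.05. Both means were below the median of all probe sets, at percentiles 28.7 in MCF10A-SNAI1 and 42.5 in MCF10A cells.

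ITGB6 encodes beta6, which pairs with alphaV alone and is known as the integrin beta chain induced in epithelia during wound repair. It lay at 4.42, 4.06 and 4.38 in MCF10A-SNAI1 cells, against 9.68, 9.85 and 9.74 in MCF10A cells. No other member had such a gap between the lines, 5.26 on the log2 scale. ITGB6 was down-regulated 44.3-fold (log2 fold change -5.47, SE 0.11, 95% interval -5.73 to -5.22, adjusted p = 3.13e-07 from limma), the 7th lowest change of the 18417 genes. Its mean lay at percentile 25.2 of all probe sets in MCF10A-SNAI1 cells and at 90.9 in MCF10A cells. Values this dim are sensitive to how background was removed, which the deposited table does not allow to be changed, so the size of the fold carries that limit.

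ITGB8 encodes beta8, which also pairs with alphaV alone and binds latent TGF-beta. It was at 8.08, 8.10 and 8.07 in MCF10A-SNAI1 cells, against 7.05, 7.02 and 6.95 in MCF10A cells. The arrays were apart by 1.02, with an SD of 0.014 among the MCF10A-SNAI1 arrays. ITGB8 was up-regulated 2.11-fold (log2 fold change 1.08, SE 0.059, 95% interval 0.94 to 1.22, adjusted p = 2.42e-05 from limma), an interval that reaches below the fold threshold.

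ITGB3 encodes beta3, which forms the vitronectin receptor with alphaV and the platelet fibrinogen receptor with alphaIIb. It lay at 6.01, 6.03 and 6.12 in MCF10A-SNAI1 cells and at 5.35, 5.26 and 5.43 in MCF10A cells. The change passed the p threshold but not 2-fold (log2 fold change 0.70, SE 0.070, 95% interval 0.54 to 0.87, adjusted p = 3.89e-04 from limma). ITGA2B, the platelet partner, was at 5.62 ± 0.16 in MCF10A-SNAI1 cells and 5.71 ± 0.070 in MCF10A cells (SD, n = 3 arrays each; adjusted p = 0.5911 from limma). ITGB5, the beta5 chain of another vitronectin receptor, was at 9.86, 9.91 and 9.89 in MCF10A-SNAI1 cells and at 9.40, 9.43 and 9.34 in MCF10A cells. All its MCF10A-SNAI1 arrays were higher, by 1.41-fold on average (log2 fold change 0.50, SE 0.059, 95% interval 0.36 to 0.64, adjusted p = 8.69e-04 from limma).

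ITGB1 encodes beta1, the common partner of many alpha chains. Its values were 11.52, 11.59 and 11.56 in MCF10A-SNAI1 cells, against 11.38, 11.46 and 11.33 in MCF10A cells. The groups were separated by 0.07 and the change did not pass the threshold (log2 fold change 0.17, 95% interval 0.03 to 0.32, adjusted p = 0.0969 from limma). For SNAI1 and for each of the 8 chains without overlap, an exact two-sided permutation test gave p = 0.1, the smallest that 3 arrays against 3 allow.

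**Figure D1:**
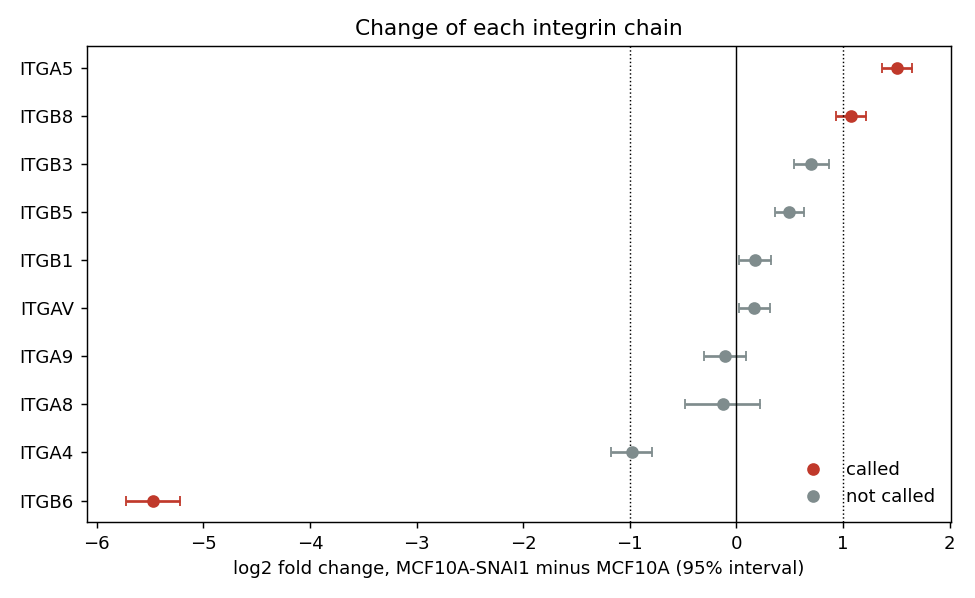
Log2 fold change of each chain, MCF10A-SNAI1 minus MCF10A, with the 95% interval from limma, called genes in red and others in grey, and dotted lines at the 2-fold thresholds. ITGB6 lies at -5.47 and ITGA4 at -0.98, beside the lower line, while ITGA5 and ITGB8 lie above the upper one at 1.50 and 1.08.

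Next, chains that join in known receptors were set against each other within each array, since levels of different probe sets cannot be compared but their changes can. The log2 difference of 2 chains was taken on each array and compared between the lines, for 10 pairs. Relative to its partner ITGB1, ITGA5 moved by 1.33 ± 0.056 (SE, n = 3 arrays per line), and relative to ITGAV it moved by 1.34 ± 0.034. ITGA4 moved by -1.15 ± 0.045 relative to ITGB1. The change of ITGAV relative to ITGB1 was -0.01 ± 0.027, with overlapping arrays. Relative to ITGAV, the beta chains differed in direction. ITGB6 moved by -5.64 ± 0.12, whereas ITGB8 moved by 0.91 ± 0.027, ITGB3 by 0.54 ± 0.086 and ITGB5 by 0.33 ± 0.019. The arrays of the lines did not overlap in 8 of the 10 pairs, with ITGA8 relative to ITGB1 the other exception (-0.30 ± 0.20). Of all single genes, 48.3% did not overlap. The share over all pairs of genes was not computed, and the 10 pairs reuse the same chains. ITGA9 relative to ITGB1 moved by -0.28 ± 0.12 without overlap, although the arrays of ITGA9 itself overlapped. With each array left out in turn, ITGA8 relative to ITGB1 ranged from -0.43 to -0.15 (lowest in size without MCF10A replicate 1, and -0.19 without MCF10A-SNAI1 replicate 2), and ITGA9 relative to ITGB1 from -0.36 to -0.19 (lowest in size without MCF10A replicate 3). For each of the 8 pairs without overlap an exact two-sided permutation test gave p = 0.1, and 0.125 after Benjamini-Hochberg adjustment over the 10 pairs, so no pair could pass a threshold of 0.05 with this number of arrays.

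**Figure D2:**
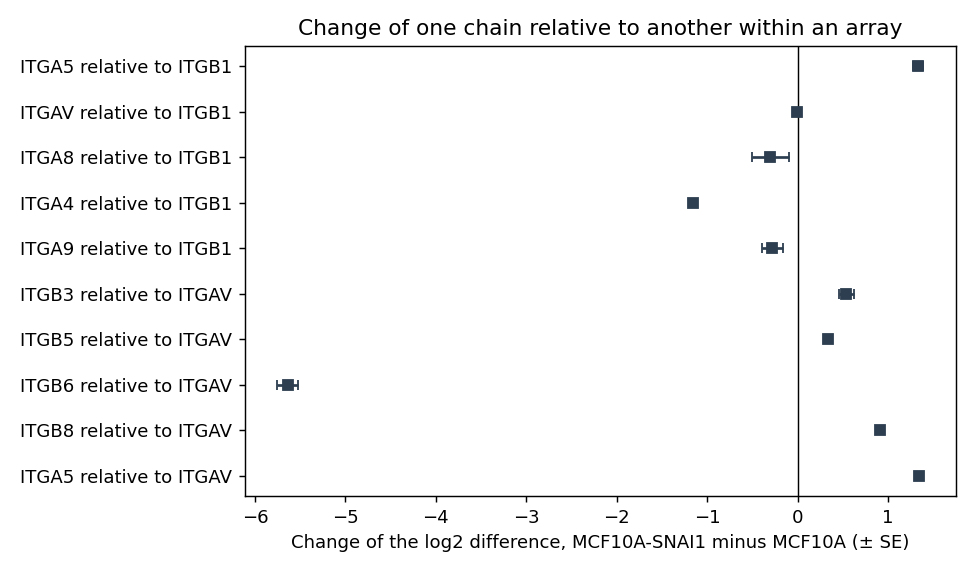
Change of the log2 difference between 2 chains on the same array, MCF10A-SNAI1 minus MCF10A, as mean ± SE of 3 arrays per line. ITGB6 lies at -5.64 relative to ITGAV, and ITGB8, ITGB3 and ITGB5 lie at 0.91, 0.54 and 0.33.

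The other integrin chains, most of which bind collagen, laminin or leukocyte ligands, were counted for comparison, with the platelet chain ITGA2B among them. Of 15 measured, 1 was called higher and 3 lower, a share of 26.7% beside 5.64% of all genes. Their median log2 fold change was -0.07. ITGA10, a collagen receptor chain, had a log2 fold change of 1.48, and the laminin receptor chains ITGA6 and ITGB4 and the collagen receptor chain ITGA2 had -5.89, -2.09 and -3.68. ITGB6 and ITGA6 were thus the only 2 of the 25 measured integrin chains that fell by more than 5 on the log2 scale. ITGB7, the other partner of alpha4, was not called, at -0.07 (adjusted p = 0.6458 from limma).

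Extracellular ligands of these receptors were called higher in 9 of 25 cases and lower in none, a share of 36% beside 5.64% of all genes. The median of the list was 0.06. FN1, which encodes fibronectin itself, lay at 13.80, 13.89 and 13.88 in MCF10A-SNAI1 cells, against 12.33, 12.45 and 12.36 in MCF10A cells. It was up-regulated by 1.47 on the log2 scale (SE 0.064, adjusted p = 9.07e-06 from limma), beside 1.50 for its receptor chain ITGA5. The FN1 mean lay at percentile 99.96 of all probe sets in MCF10A-SNAI1 cells and at 98.95 in MCF10A cells. Whether values this bright understate a change was not tested. EDIL3, an RGD protein that binds alphaV integrins, was at 10.56, 10.65 and 10.68 in MCF10A-SNAI1 cells, against 4.16, 3.75 and 3.77 in MCF10A cells (log2 fold change 6.74, SE 0.12, adjusted p = 1.77e-07), with 2 of the MCF10A values in the lowest 20% of all values. The matrix protein periostin, POSTN, and fibrillin-1, FBN1, which carries RGD, followed at 6.54 and 4.59, and SVEP1, a ligand of alpha9-beta1, at 2.67. TGFBI and tenascin C, TNC, were lower but under 2-fold, at -0.99 and -0.82 (adjusted p = 2.96e-05 and 0.0020 from limma). TGFBI was called lower without MCF10A replicate 1, at -1.003.

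The latent TGF-beta complex is the cargo of alphaV-beta6 and alphaV-beta8, which bind the RGD site in the latency peptides of TGF-beta1 and TGF-beta3. Of 8 measured genes of the complex, 2 were called higher and none lower, a share of 25% beside 5.64% of all genes. The median was 0.44. TGFB2, whose latency peptide lacks that site, lay at 10.73, 10.79 and 10.76 in MCF10A-SNAI1 cells, against 6.41, 6.76 and 6.52 in MCF10A cells (log2 fold change 4.20, SE 0.096, adjusted p = 5.78e-07 from limma). TGFB1 was higher but under 2-fold, at 0.88 (adjusted p = 6.72e-05 from limma), and TGFB3 was not called, at 0.01 (adjusted p = 0.9661). LTBP3, a latent TGF-beta binding protein, was higher by 1.33 (adjusted p = 0.0011 from limma), with an SD of 0.32 among the MCF10A arrays, and lost its call under the methods' t-test (adjusted p = 0.0210).

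Inside the cell, talins, kindlins and other proteins act on the integrin tails. Of 11 measured genes of such activators and inhibitors, 1 was called higher, 1 lower and 9 not, with a median of -0.002. The share called was 18.2%, beside 5.64% of all genes. The called genes were both kindlins, which work with talin to switch integrins on. FERMT2, kindlin-2, was at 10.14, 10.22 and 10.18 in MCF10A-SNAI1 cells, against 8.10, 8.22 and 8.11 in MCF10A cells (log2 fold change 2.04, SE 0.064, adjusted p = 1.94e-06 from limma). FERMT1, the epithelial kindlin-1, was at 7.52, 7.69 and 7.63 in MCF10A-SNAI1 cells, against 9.99, 10.13 and 10.03 in MCF10A cells (log2 fold change -2.44, SE 0.072, adjusted p = 1.50e-06). The 2 genes moved in opposite directions on all arrays. The talin gene TLN1 was higher but under 2-fold, at 0.96 (adjusted p = 3.92e-05 from limma).

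Of 22 measured scaffolds and kinases of focal adhesions, the plaques that join integrins to actin, 4 were called higher, 2 lower and 16 not. The share called was 27.3%, beside 5.64% of all genes, and the median was 0.21. Tensins, which bind beta tails and actin, were split. TNS4, a short tensin without the actin-binding part, lay at 6.38, 6.27 and 6.28 in MCF10A-SNAI1 cells, against 11.32, 11.27 and 11.25 in MCF10A cells (log2 fold change -4.97, SE 0.062, adjusted p = 7.06e-08 from limma). TNS2 and TNS3 were higher, at 2.21 and 1.60, and TNS1 was not called, at 0.28 (adjusted p = 0.0552 from limma). NEDD9, a docking protein of the focal adhesion kinase, had the highest change of the list at 3.33, and PARVA, a partner of the integrin-linked kinase, was called higher at 1.14. The adaptor GIT1 was called lower at -1.17. The kinases PTK2, SRC and ILK were not called, at -0.20, -0.16 and 0.19.

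Of 13 genes of integrin endocytosis and recycling, 1 was called higher and none lower, a share of 7.7% beside 5.64% of all genes. The called gene was DAB2, a clathrin adaptor that takes up integrins, at 8.43, 8.58 and 8.61 in MCF10A-SNAI1 cells, against 5.83, 6.09 and 5.93 in MCF10A cells (log2 fold change 2.59, SE 0.089, adjusted p = 2.96e-06 from limma). The other 12 did not pass the adjusted p, and their log2 fold changes lay between -0.30 for RAB4A and 0.45 for HAX1.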

How the data were processed

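RNA of 3 MCF10A-SNAI1 and 3 MCF10A cultures was measured on Affymetrix HuGene-1_0-st-v1 arrays. The table that the authors deposited holds log2 values of 33297 probe sets. Its normalization is GC RMA in GeneSpring GX by the article, while the submitters' processing notes list GCOS, MAS5 and Affymetrix Expression Console 1.1. No source used here says which of them made the table, or on which genome build the array was annotated. The number of arrays limits the precision. The p-values set a difference against the spread between arrays, not against the spread between separately made lines.

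The deposited values were compared in R 4.3.3 with limma 3.58.1 (lmFit, eBayes, Benjamini-Hochberg adjustment over all probe sets), after the code had been tested on simulated data. Of the probe sets, 19460 had 1 gene symbol, 1754 several and 12083 none; the brightest of the first kind stood for a gene. Symbols were updated through GRCh38.p14. Other listed genes are not analysed here. Named genes were the members, SNAI1 and up to 4 called genes per list and direction. FN1, CD14, PTPRC, ITGA2B, ITGB7, TGFBI, TNC, TGFB1, TGFB3, TLN1, TNS1, PTK2, SRC, ILK, RAB4A and HAX1 were chosen after their values were seen. The members and lists were chosen with earlier results of these data known. Alternatives changed the normalization (quantile, median centring), the model (replicate block, robust moderation with a trend, the methods' t-test), the arrays (leaving out each), the probe sets (2 limits on dim ones, averaging per gene) and the fold threshold (none).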

Additional observations from a re-analysis of the deposited data

How the results depend on the processing

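ITGA5, ITGB8 and ITGB6 were called under all 15 alternatives, at log2 fold changes of 1.48 to 1.53, 1.05 to 1.1 and -5.54 to -5.36. Not all alternatives could move these results. Having no fold threshold could only relax a call, and averaging per gene left the chains as they were, since each had 1 probe set. The changes of the model and the limits on dim probe sets left the fold changes as they were and could move only the adjusted p. ITGA4 ranged from -1.05 to -0.93 and was called in 1 of the fits that left out an array, without MCF10A replicate 3 (-1.049), so the number of chains called lower ranged from 1 to 2 over those fits. With no fold threshold ITGA4 (-0.979), ITGB3 (0.704) and ITGB5 (0.497) were called as well, which made 4 chains higher and 2 lower. In that setting 11 ligands were called higher and 3 lower, and 1 of the other integrin chains higher and 4 lower. The latent TGF-beta complex had 4 higher and none lower, the tail regulators 3 higher and 1 lower, and the focal adhesion list 7 higher and 3 lower. The methods' t-test called 1 gene of the latent TGF-beta complex higher. Over the fits that left out an array, the ligands called lower ranged from 0 to 1, ITGA8 ranged from -0.224 to 0.022, and ITGAV relative to ITGB1 from -0.019 to 0.016; these 2 changed sign and were called nowhere. Above the median level 6 of the 10 chains could be tested, and ITGA8, ITGA4, ITGA9 and ITGB3 dropped out.

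Replicate numbers do not mark a shared culture in the labels, and the deviations of same-numbered arrays correlated at 0.12, 0.12 and -0.01. With the replicate number as a block, ITGB6 stayed at -5.471, ITGA5 at 1.505 and ITGB8 at 1.078, since the balanced design fixes these values. Only their adjusted p from limma moved, to 9.64e-05, 0.000384 and 0.000813, against 3.13e-07, 5.6e-06 and 2.42e-05 without the block. These 3 chains were called in that fit, with 564 genes higher and 464 lower, against 571 and 467 without the block. Of the 6 arrays, 4 correlated best with the array of their own number in the other line. The table holds no detection calls, so signal over background could not be assessed for any chain.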
